A study of Homo sapiens with 12 samples.

Results

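Antisense RNAs whose symbols end in -AS1 were followed together with the host genes they are named after. The members were chosen by their level: a row was taken when its mean over the 12 libraries reached 1 CPM (reads scaled to a common library total), with the sum of all rows as the library size. This gave 320 rows, with 319 distinct symbols, out of 1385 -AS1 rows considered and 60605 rows in the whole table; DNAJC9-AS1 stands on 2 rows. The mean level therefore describes the choice and is no finding, and a member could reach it through 1 group alone. That was so for 4 members through WT, 8 through GFP, 8 through GSTA4 and 8 through OSK, while 252 members were at or above 1 CPM in all 4 groups. The members nearest the limit on the inside were PSMB8-AS1 at a mean of 1.01 CPM and MAP3K4-AS1 at 1.00 CPM, and the rows nearest on the outside were ZNF232-AS1 at 0.999 CPM and DNAJC27-AS1 at 0.983 CPM.

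The libraries were made from poly(A)-selected RNA of ARPE-19, an established human cell line of the retinal pigment epithelium, the pigmented layer that supports the photoreceptors. Each of 4 groups had 3 libraries. WT is ARPE-19 for which the labels name no open reading frame, and its culture is not described. GFP is a stable ARPE-19 line expressing green fluorescent protein, the control for the expression of any open reading frame. GSTA4 is a stable line expressing glutathione S-transferase alpha 4, an enzyme that conjugates lipid peroxidation products to glutathione. OSK is a stable line expressing the pluripotency factors OCT4 (POU5F1), SOX2 and KLF4. In the stable lines the open reading frame had been expressed for 4 days. Nothing in the labels says that the 3 libraries of a group came from separate cultures or from more than 1 stable line, so p-values measure only the spread between these libraries, and an open reading frame and the line that carries it cannot be told apart.

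An antisense RNA is transcribed from the strand opposite to its host. Many start near the host's own promoter and run away from it, others begin inside the host or beyond its far end and run back across it. A good part of such transcripts is removed quickly by the nuclear exosome, an RNA-degrading complex; among the stable ones, some act on the host in cis, such as CDKN2B-AS1 (ANRIL) on the INK4 locus, and others, such as OIP5-AS1, work elsewhere in the cell.

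The labels fitted the open reading frames: GSTA4 was at 416 ± 17.6 CPM (SD, n = 3) in GSTA4 against 8.79 ± 0.849 CPM in GFP, and POU5F1, SOX2 and KLF4 stood at 779 ± 26.8, 628 ± 5.02 and 928 ± 18.9 CPM in OSK against 0.22, 0.149 and 0.658 CPM in GFP. Of the markers of the pigment epithelium, MITF, OTX2, PMEL and TYRP1 were present, whereas RPE65, TTR and CRX were near 0. Total counts ran from 12630675 to 17045454 reads. GFP replicate 1 stood apart. It had reads on 27349 named rows against 19488 to 22073 in the other 11 libraries, and on 1032 of the -AS1 rows against 740 to 874. The -AS1 rows below the limit summed to 331.4 CPM in it, against 141.0 to 217.8 CPM elsewhere, with the next highest value in GFP replicate 2. The median member was at 3.88 CPM in GFP replicate 1 and at 2.49 to 3.40 CPM in the others. Of 11 markers of fibroblasts, endothelium, blood, neurons, Schwann cells and melanocytes, 10 had reads in GFP replicate 1, summing to 6.62 CPM, against 3 to 8 markers and 1.13 to 3.74 CPM in the other libraries; LUM was at 0 in all 12. The part of this library in the results was not tested, and the numbers of members that rose and fell against GFP are given below without it as well.

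**Figure D1:**
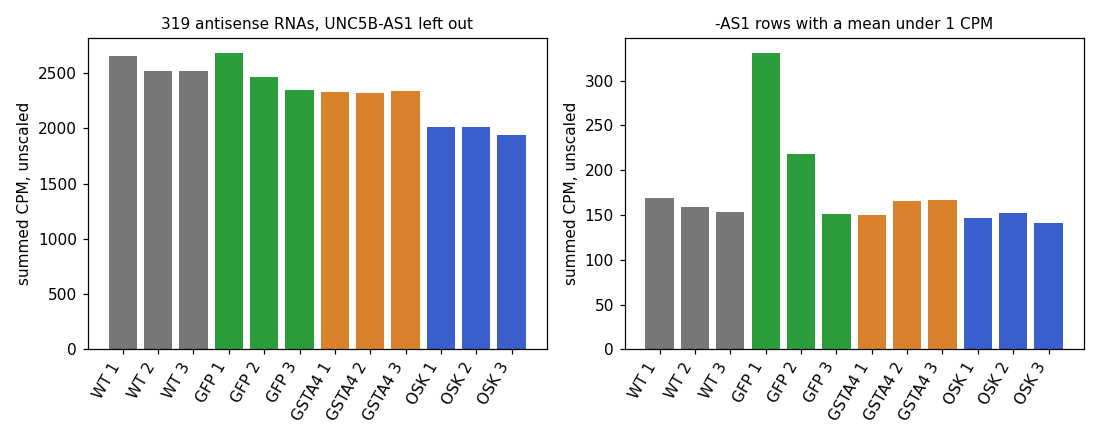
Summed unscaled CPM in each library of the 319 members other than UNC5B-AS1 (left) and of the -AS1 rows with a mean under 1 CPM (right); bars are single libraries, coloured by group. The OSK libraries are the lowest on the left, at 1945 to 2012 CPM, and GFP replicate 1 is the highest on the right, at 331.4 CPM. With UNC5B-AS1 included (not drawn), the sums overlap, at 2363 to 2505 CPM in OSK and 2325 to 2690 CPM elsewhere.

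Antisense RNAs were scarce next to their hosts when exon length was taken into account. The median of the members' mean levels was 3.19 CPM, and 110 members lay between 1 and 2 CPM, 93 between 2 and 5, 67 between 5 and 10 and 50 at 10 CPM or above. The 317 distinct hosts in the table had a median of 34.4 CPM. Divided by exon length, the median was 1.27 CPM per kb for the members and 5.40 CPM per kb for their hosts, and in 84 of 315 pairs the antisense RNA stood above its host on this scale. In the GENCODE v29 annotation of GRCh38, all 315 placed pairs lie on opposite strands. In 232 of them exons of both genes overlap, with a median overlap of 279 bases, in 49 the gene bodies overlap without shared exon sequence, and in 34 they do not overlap; 5 members could not be placed as a pair. Both starts lie within 1 kb of each other in 120 pairs. The sources used here do not say whether counting used the strand, so in the 232 pairs with exon overlap reads of a gene and its antisense partner cannot be told apart. In the 49 pairs with overlapping bodies only, reads of unspliced RNA from 1 gene could likewise fall on exons of the other. This was not tested. How reads on sequence shared by genes were counted is not known here, and the part of counting in low host values was not tested. Among the 84 pairs are MIF, at 0.184 CPM per kb against 0.998 for MIF-AS1, and NDUFV2, at 0.335 against 1.45 for NDUFV2-AS1.

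The 5 members with the highest means differed in how they stood to their hosts. FGD5-AS1 (chromosome 3, 14920347 to 14948424, minus strand) measured 149, 151 and 146 CPM in WT, 154, 149 and 155 CPM in GFP, 120, 134 and 133 CPM in GSTA4 and 138, 139 and 143 CPM in OSK. Its host FGD5, a guanine nucleotide exchange factor of endothelium, was between 0 and 0.989 CPM in the 12 libraries. FGD5-AS1 was the steadiest of the 5, and its fall in GSTA4 against GFP, -0.24 as log2 fold change (SE 0.06, adjusted p = 0.0032), was small, and the libraries of these groups did not overlap. OIP5-AS1 (chromosome 15, 41283990 to 41309737, plus strand), known as cyrano, measured 85.2, 77.5 and 77.2 CPM in WT, 87.0, 83.7 and 76.6 CPM in GFP, 91.1, 99.8 and 101 CPM in GSTA4 and 123, 115 and 129 CPM in OSK. Its 3 OSK libraries lay above all others, and it rose in OSK against GFP by 0.57 (SE 0.07, adjusted p = 8.7e-07), while OIP5, a centromere protein, stayed under 1 CPM throughout. SLC9A3-AS1, antisense to a sodium/proton exchanger, measured 115, 125 and 135 CPM in GFP and 80.0, 76.9 and 64.4 CPM in OSK. It fell in OSK by 0.77 on the log2 scale (SE 0.09, adjusted p = 4.5e-07), and the host SLC9A3 gave -0.34 (adjusted p = 0.069). GABPB1-AS1, antisense to a subunit of the GA-binding protein, measured 151, 97.0 and 102 CPM in WT, 78.0, 59.9 and 65.3 CPM in GFP and 44.5, 48.5 and 42.1 CPM in OSK. WT, GFP and OSK did not overlap. Per kb of exon, the mean in GSTA4 was 4.92 CPM, between 6.80 in WT and 3.94 in GFP. GABPB1 itself stayed between 7.71 and 13.3 CPM in all libraries. The fifth, UNC5B-AS1, reached this rank through OSK alone and is described with that group.

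**Figure D2:**
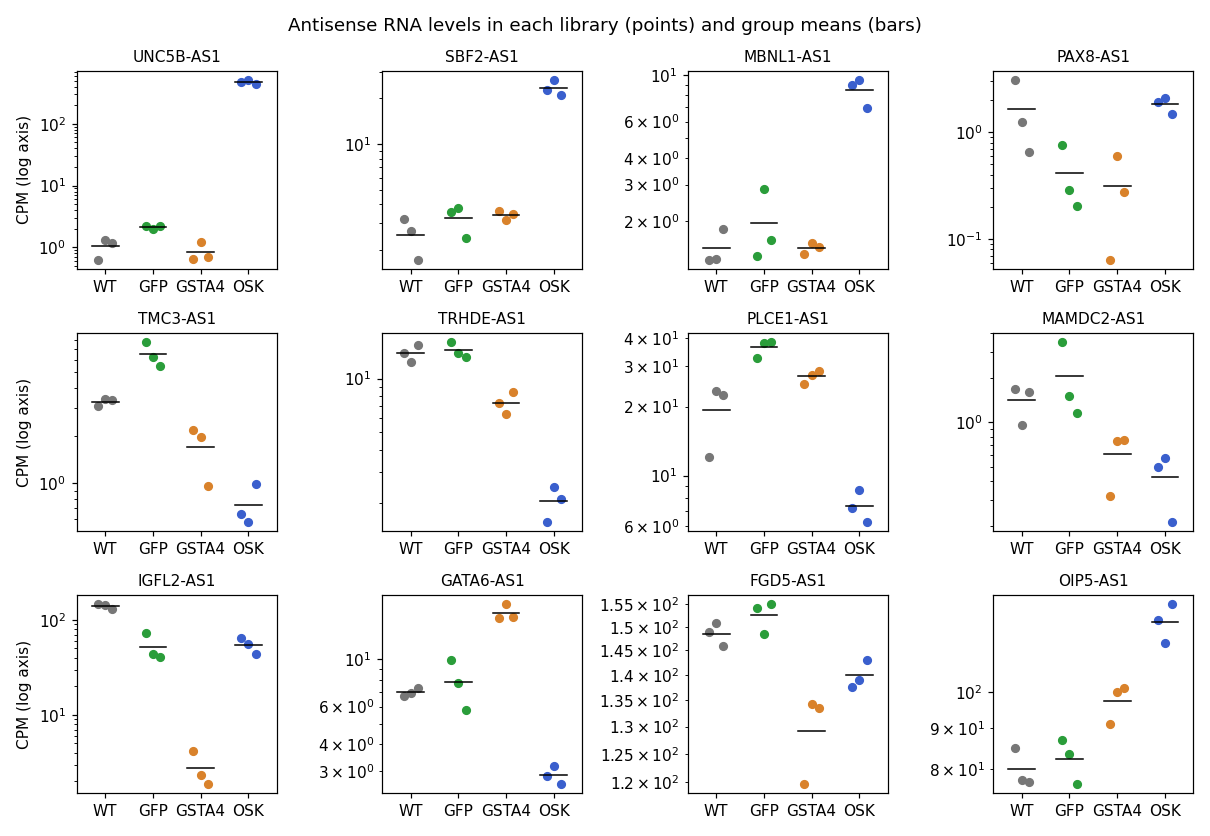
Level of 12 antisense RNAs in each library, in TMM-scaled CPM on a log axis; points are single libraries and bars are group means. UNC5B-AS1 lies at 437 to 514 CPM in OSK and at 0.622 to 2.21 CPM elsewhere, IGFL2-AS1 lies lowest in GSTA4, and FGD5-AS1 stays between 120 and 155 CPM.

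Differences were tested for all 15179 genes that passed the filter on low counts, with edgeR's quasi-likelihood test and Benjamini-Hochberg adjustment, and a gene is said to have risen or fallen where the adjusted p was under 0.05. All 320 members passed that filter. CPM of single libraries is after TMM scaling, and changes are log2 fold changes between group means. With a difference anywhere among the 4 groups as the question, 195 of 320 members (60.9%) passed, against 10152 of 15179 genes (66.9%). For 294 members with a tested host, the ratio of antisense RNA to host was also tested, with limma, among 443 antisense and host pairs of all -AS numbers.

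Cells with the 3 factors were compared with the GFP control line. More antisense RNAs fell than rose: 99 of 320 (30.9%) fell and 29 (9.06%) rose, where 22.8% of all tested genes fell and 23.1% rose. The median log2 fold change was -0.32 for members and -0.02 for all genes. Of the 320 members, 44 fell and 16 rose by at least 2-fold, and of all 15179 tested genes 998 fell and 769 rose by that much. Of 711 named long noncoding RNAs at this level, 314 of them members, 232 fell and 61 rose, and of 107 other antisense, divergent and intronic transcripts 28 fell and 9 rose. Of 293 tested hosts 97 fell and 73 rose. Of 20 subunits and cofactors of the nuclear exosome, 6 rose and 2 fell. Without GFP replicate 1, 82 members fell and 29 rose. With library size alone as the scaling, 111 members fell and 26 rose, and 39.8% of all genes past the threshold were higher in OSK, against 50.4% here. WT and GSTA4 enter this comparison only through the shared filter, scaling and spread. Among the 308 members that reached a mean of 1 CPM in their 6 libraries, 98 fell and 26 rose.

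**Figure D3:**
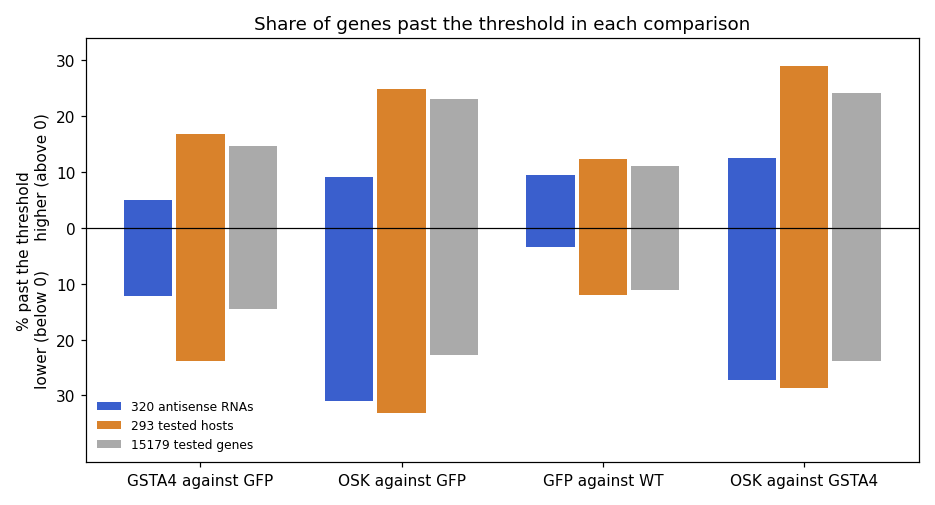
Percent of genes past the threshold in each of 4 comparisons, higher above 0 and lower below 0, for the 320 antisense RNAs, their 293 tested hosts and all 15179 tested genes. In OSK against GFP 30.9% of the antisense RNAs are lower and 9.06% higher, against 22.8% and 23.1% of all genes.

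More members fell than rose at each level of abundance. Members fell and rose in numbers of 16 and 6 among the 110 between 1 and 2 CPM, of 25 and 10 among the 93 between 2 and 5, of 34 and 7 among the 67 between 5 and 10, and of 24 and 6 among the 50 at 10 CPM or above. Shares of all genes in these bands were not counted. Of all 13686 genes with a mean of at least 1 CPM, 23.6% fell and 24.9% rose. Summed over all members except UNC5B-AS1, antisense RNA made up 1945 to 2012 unscaled CPM in OSK and 2324 to 2688 in the other 9 libraries, without overlap. With UNC5B-AS1 included, the sums overlapped, at 2363 to 2505 CPM in OSK and 2325 to 2690 CPM elsewhere. Group means of unscaled CPM placed 172 of the 320 members lowest in OSK, against 46 in WT, 28 in GFP and 74 in GSTA4. The share of all genes lowest in OSK was not counted, and this scale lowers genes in general there. With library size alone, the median log2 fold change in OSK against GFP was -0.09 for all genes and -0.39 for members. In bulk RNA, fewer cells that express a transcript and less of it per cell cannot be told apart.

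UNC5B-AS1 showed the largest rise. It lies at chromosome 10, 71217224 to 71218228, on the minus strand within the body of UNC5B, a netrin receptor, and shares no exon sequence with it. It measured 0.622, 1.32 and 1.18 CPM in WT, 2.21, 2.01 and 2.17 CPM in GFP, 0.635, 1.20 and 0.688 CPM in GSTA4 and 478, 514 and 437 CPM in OSK. UNC5B measured 142, 183 and 186 CPM in WT, 248, 266 and 322 CPM in GFP, 184, 192 and 191 CPM in GSTA4 and 740, 765 and 710 CPM in OSK. Both were highest in OSK with no overlap, by very unequal amounts: the log2 fold change over GFP was 7.80 (SE 0.12, adjusted p = 4.9e-21) for the antisense RNA and 1.41 (SE 0.09, adjusted p = 9.3e-11) for the host, and the ratio rose by 6.30 (SE 0.23, limma adjusted p = 4.4e-17). Per kb of exon, the antisense RNA went from 3.01 CPM against 40.7 CPM for UNC5B in GFP to 674 CPM against 108 CPM in OSK.

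SBF2-AS1 rose while its host fell. The RNA starts at chromosome 11, 9758292, plus strand, beyond the 3′ end of SBF2, and runs to 9811335 into the host, which encodes a myotubularin-related protein of membrane traffic. It measured 3.57, 3.80 and 2.38 CPM in GFP and 22.9, 26.6 and 21.2 CPM in OSK, and SBF2 64.9, 74.5 and 68.0 CPM in GFP and 48.4, 53.3 and 49.8 CPM in OSK. The antisense RNA rose by 2.86 (SE 0.19, adjusted p = 1.4e-10), SBF2 fell by 0.45 (adjusted p = 6.8e-05), and the ratio rose by 3.28 (limma adjusted p = 1.5e-10). MBNL1-AS1, antisense to the splicing regulator MBNL1, went from 1.37, 2.87 and 1.63 CPM in GFP to 8.97, 9.50 and 6.96 CPM in OSK. It rose by 2.11 (SE 0.26, adjusted p = 1.1e-06) and MBNL1 by 0.52 (adjusted p = 4.8e-06), so the ratio rose as well, by 1.58 (limma adjusted p = 0.00037). PAX8-AS1, antisense to a paired-box factor of thyroid and kidney, was at 0.760, 0.287 and 0.204 CPM in GFP and 1.92, 2.09 and 1.48 CPM in OSK. It rose by 2.14 (SE 0.62, adjusted p = 0.008), or by 2.86 without GFP replicate 1, and it was also at 3.11, 1.25 and 0.649 CPM in WT, so its WT and OSK libraries overlap.

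Among the 4 largest falls, 3 went with a fall of the host and 1 did not. TMC3-AS1, antisense to a transmembrane channel-like gene, measured 7.76, 6.24 and 5.50 CPM in GFP and 0.640, 0.570 and 0.985 CPM in OSK, a fall of 3.14 on the log2 scale (SE 0.32, adjusted p = 6.2e-08). TMC3 fell by 3.37 (adjusted p = 6.2e-14), from 364, 340 and 383 CPM to 35.4, 38.4 and 31.4 CPM, and the ratio gave 0.42 (limma adjusted p = 0.38). Their exons overlap by 409 bases, so part of the reads may be shared. TRHDE-AS1, antisense to the ectoenzyme that degrades thyrotropin-releasing hormone, moved together with its host. It measured 16, 13.9 and 13.2 CPM in GFP and 1.57, 2.47 and 2.11 CPM in OSK against 29.4, 17.6 and 19.2 CPM and 3.84, 3.61 and 3.31 CPM for TRHDE, and both fell, by 2.80 (SE 0.18, adjusted p = 1.1e-10) and by 2.62 (adjusted p = 1.7e-09). MAMDC2-AS1 fell by 2.22 (SE 0.52, adjusted p = 0.0016), or by 1.61 without GFP replicate 1, in which it was at 3.50 CPM against 1.51 and 1.15 CPM in the other GFP libraries; MAMDC2 fell by 2.11. PLCE1-AS1 is the exception. It measured 32.5, 37.8 and 38.3 CPM in GFP and 7.26, 8.67 and 6.26 CPM in OSK, a fall of 2.29 (SE 0.18, adjusted p = 2e-09), while PLCE1, a phospholipase C that acts downstream of Ras proteins, rose by 0.23 (adjusted p = 0.015), from 204, 222 and 225 CPM to 238, 267 and 259 CPM. The ratio fell by 2.51 (limma adjusted p = 4.6e-11).

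The promoters of 5 of these RNAs are shown because KLF4, 1 of the 3 factors, is known to bind CACCC-type boxes and the members moved in opposite directions. The windows are from RefSeq on GRCh38.p14, 250 bases before to 50 bases after the annotated start, read 5′ to 3′ on the strand of the antisense RNA, with CACCC or its reverse complement GGGTG in capitals. UNC5B-AS1 is at chr10:71218179-71218478 (minus strand), SBF2-AS1 at chr11:9758043-9758342 (plus), TMC3-AS1 at chr15:81324083-81324382 (plus), TRHDE-AS1 at chr12:72273460-72273759 (minus) and PLCE1-AS1 at chr10:94287021-94287320 (minus).
UNC5B-AS1: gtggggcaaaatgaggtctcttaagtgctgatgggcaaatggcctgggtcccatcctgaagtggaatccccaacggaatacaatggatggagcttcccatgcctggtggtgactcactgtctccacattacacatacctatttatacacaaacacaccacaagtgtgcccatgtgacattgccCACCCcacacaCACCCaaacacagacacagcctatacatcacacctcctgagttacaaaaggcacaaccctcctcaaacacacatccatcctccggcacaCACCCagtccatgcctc
SBF2-AS1: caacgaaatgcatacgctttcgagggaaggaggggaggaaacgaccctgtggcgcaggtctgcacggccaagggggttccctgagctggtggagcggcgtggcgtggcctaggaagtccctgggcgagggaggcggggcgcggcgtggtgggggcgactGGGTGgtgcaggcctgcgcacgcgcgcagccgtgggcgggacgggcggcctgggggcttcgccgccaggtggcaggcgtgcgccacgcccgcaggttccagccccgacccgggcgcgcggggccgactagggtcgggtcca
TMC3-AS1: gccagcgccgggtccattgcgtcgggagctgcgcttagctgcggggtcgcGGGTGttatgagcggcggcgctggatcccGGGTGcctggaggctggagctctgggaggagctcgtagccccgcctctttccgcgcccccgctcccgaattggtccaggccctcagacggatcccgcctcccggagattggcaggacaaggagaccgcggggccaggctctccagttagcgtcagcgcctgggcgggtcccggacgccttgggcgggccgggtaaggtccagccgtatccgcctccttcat
TRHDE-AS1: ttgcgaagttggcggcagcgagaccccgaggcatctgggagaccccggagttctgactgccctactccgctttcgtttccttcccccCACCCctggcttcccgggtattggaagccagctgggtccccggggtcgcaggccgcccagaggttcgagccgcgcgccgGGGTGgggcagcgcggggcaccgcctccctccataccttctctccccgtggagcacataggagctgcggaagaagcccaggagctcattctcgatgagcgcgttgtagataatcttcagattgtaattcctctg
PLCE1-AS1: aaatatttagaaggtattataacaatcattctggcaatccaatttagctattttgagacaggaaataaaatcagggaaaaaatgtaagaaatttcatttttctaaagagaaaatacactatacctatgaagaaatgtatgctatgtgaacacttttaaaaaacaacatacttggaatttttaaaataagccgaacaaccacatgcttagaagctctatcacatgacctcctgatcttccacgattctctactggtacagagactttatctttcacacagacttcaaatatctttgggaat
CACCC occurs 3 times in the window of UNC5B-AS1, which rose, 1 time in that of SBF2-AS1, which rose, 2 times each in those of TMC3-AS1 and TRHDE-AS1, which fell, and not in that of PLCE1-AS1, which fell. UNC5B-AS1 and PLCE1-AS1 hold 2 CpG each, SBF2-AS1 36, TMC3-AS1 32 and TRHDE-AS1 24.

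Over all members with a promoter window (277 windows of 230 symbols), CACCC on either strand was in 66.1%, against 59.9% of the 35116 windows of the table. It was in 61.9% of the 21 windows of members that rose in OSK, 68.8% of the 96 windows of members that fell and 65.0% of the other 160. The 3 shares lay close to each other. The letters ATGCAAA, from the octamer that POU factors bind, were in 1.81% of the members' windows and 4.46% of all windows, and ACAAT, from the SOX site, in 18.8% and 27.4%. The members' windows were rich in CpG, with a median of 24 against 14 for all promoters, and the 21 windows of members that rose in OSK had a median of 15. A match is a description and says nothing of binding.

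For 70 members both the antisense RNA and the host passed the threshold in OSK against GFP. In 56 of these pairs they moved the same way, 42 down and 14 up, and in 14 they moved in opposite directions. In 50 pairs the antisense RNA alone passed, in 100 the host alone, and in 74 neither. Among all 443 antisense and host pairs both passed in 97, 75 of them in the same direction. Members and hosts both fell more often than they rose, and the agreement due to that lean was not counted. The antisense to host ratio changed in 88 of 294 member pairs (29.9%), 64 down and 24 up, against 24.6% of the 443 pairs, of which the members make up the most. Same-direction pairs were found in every arrangement: 39 of 48 with exon overlap, 9 of 12 with gene bodies overlapping, 8 of 10 without overlap, 20 of 26 with starts within 1 kb and 36 of 44 with starts farther apart.

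**Figure D4:**
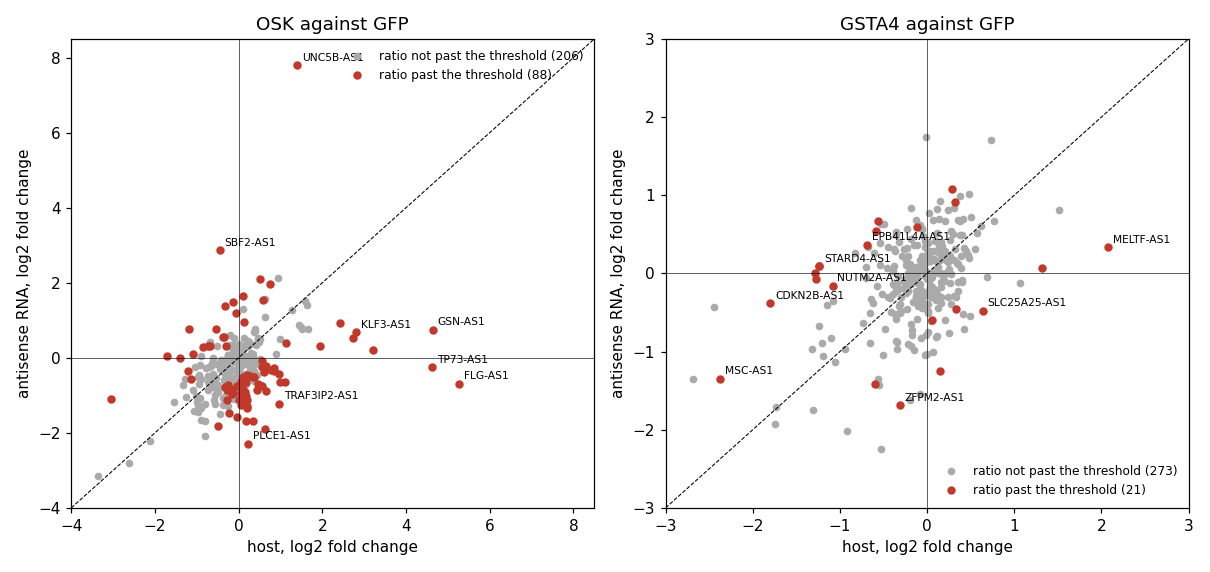
Log2 fold change of each antisense RNA (vertical) against that of its host (horizontal) for 294 pairs, in OSK against GFP (left) and GSTA4 against GFP (right); red points passed the test of the ratio, and the dashed line marks equal change. In OSK 88 pairs lie off the line by that test, with UNC5B-AS1 far above it and TP73-AS1, FLG-AS1 and GSN-AS1 far to the right of it, and in GSTA4 21 do.

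Of the 14 pairs that moved in opposite directions, SBF2-AS1 was the only one with the antisense RNA up; the other 13 had it down and the host up, among them TP73-AS1 and SLIT3-AS1. TRAF3IP2-AS1, antisense to the interleukin-17 receptor adaptor Act1, measured 12.1, 9.03 and 8.08 CPM in GFP and 4.77, 2.85 and 4.92 CPM in OSK, while TRAF3IP2 measured 26.4, 32.3 and 28.2 CPM and 53.2, 57.4 and 59.0 CPM. Neither pair of groups overlapped, and the changes were -1.22 (SE 0.23, adjusted p = 0.00016) and 0.96 (adjusted p = 1.9e-08). TMEM9B-AS1 starts 336 bases from the start of TMEM9B, which encodes a lysosomal membrane protein, on the opposite strand. It fell by 0.76 (SE 0.15, adjusted p = 0.00025) from 18.5, 17.1 and 18.7 CPM to 8.04, 12.2 and 11.8 CPM, and TMEM9B rose by 0.55 (adjusted p = 2.5e-06). SLC16A1-AS1 also starts close to its host, the lactate transporter MCT1, at a distance of 598 bases. It fell by 0.89 (SE 0.20, adjusted p = 0.0011) from 10.7, 10.6 and 8.42 CPM to 5.76, 6.52 and 3.73 CPM, and SLC16A1 rose by 0.65 from 144, 153 and 137 CPM to 227, 223 and 232 CPM. DIP2C-AS1 gave -1.70 (SE 0.38, adjusted p = 0.00099) against 0.35 for DIP2C, but its groups overlap: GFP replicate 3 was at 2.58 CPM, beside 11.3 and 9.75 CPM in the other GFP libraries and 2.77, 2.34 and 2.11 CPM in OSK. Per kb of exon, DIP2C-AS1 was highest in the GFP line, with a mean of 0.850 CPM. Its OSK mean was 0.261 CPM, next to 0.275 for GSTA4 and 0.240 for WT. DIP2C-AS1 was also higher in GFP than in WT, by 1.81 (SE 0.38, adjusted p = 0.0020). It was lower in GSTA4 than in GFP past the threshold as well.

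Some ratios changed through the host. TP73-AS1 stayed high in all groups, at 60.2, 65.9 and 68.0 CPM in GFP and 53.5, 57.4 and 52.1 CPM in OSK, a fall of 0.25 (SE 0.07, adjusted p = 0.0047). TP73, a transcription factor of the p53 family, went from 0.532, 0.860 and 0.340 CPM to 15.8, 14.2 and 12.9 CPM, a rise of 4.62 (SE 0.33, adjusted p = 3.6e-10), and the ratio fell by 4.65 (limma adjusted p = 3.5e-11). FLG-AS1 was at 1.29, 1.51 and 0.679 CPM in GFP and 0.356, 0.443 and 1.34 CPM in OSK, and the groups overlap (log2 fold change -0.70, adjusted p = 0.26; past the threshold, with adjusted p = 0.034, without OSK replicate 3). FLG, which encodes the epidermal protein filaggrin, went from 2.51, 2.29 and 1.49 CPM to 71.0, 78.8 and 92.9 CPM, so the ratio fell by 5.93 (limma adjusted p = 3.8e-11). GSN, which encodes the actin-severing protein gelsolin, rose by 4.64 with GSN-AS1 at 0.75 (adjusted p = 0.062), and the ratio fell by 3.93. In all 3 pairs the host rose strongly with no rise of the antisense RNA past the threshold.

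**Figure D5:**
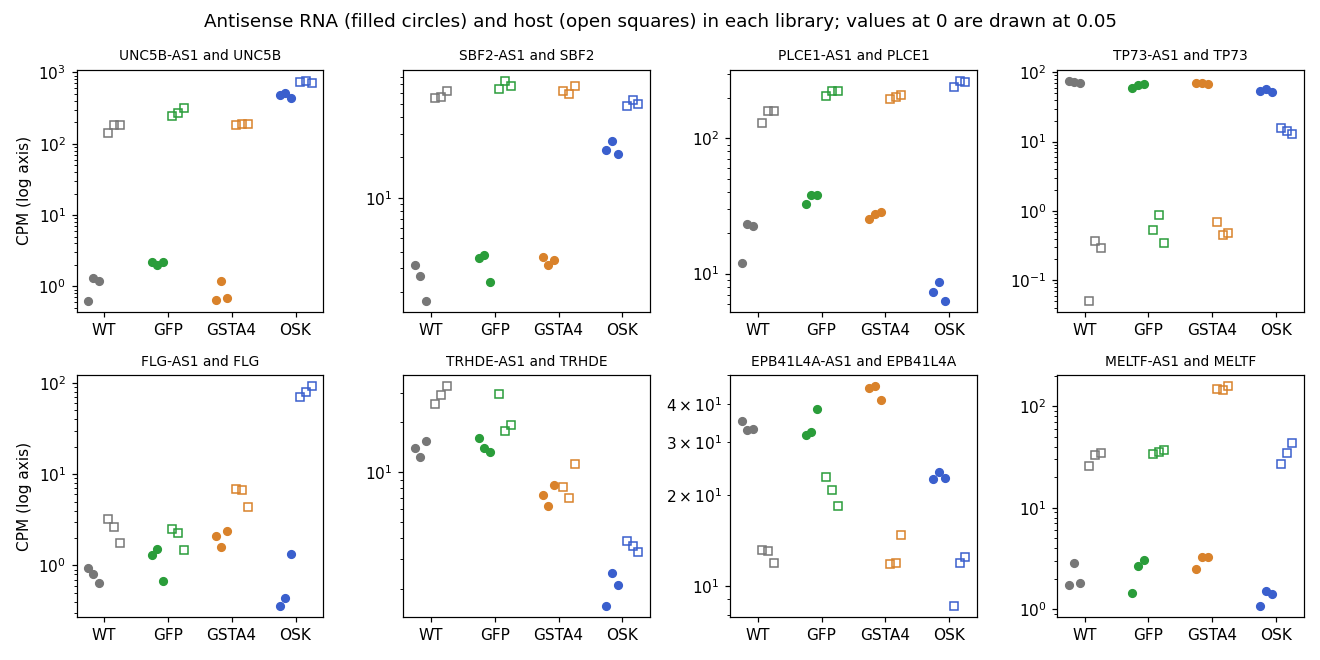
Level of 8 antisense RNAs (filled circles) and their hosts (open squares) in each library, in CPM on a log axis; a value of 0 is drawn at 0.05 (1 WT library of TP73). TRHDE-AS1 and TRHDE fall together in OSK, PLCE1-AS1 falls where PLCE1 does not, and TP73 and FLG rise where their antisense RNAs do not.

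Of the members, 21 are antisense to a developmental transcription factor, in a list drawn up with earlier results of these data known. In OSK against GFP 8 of the 21 fell and 5 rose, beside 99 and 29 of all 320 members, and the median change on the log2 scale was -0.34, beside -0.32 for all members. Of 10 pairs in which both passed, 9 moved the same way. SIX3-AS1 starts 25 bases from SIX3, a factor of the early eye field, on the other strand. It measured 4.26, 3.51 and 3.12 CPM in GFP and 11.9, 10.3 and 9.64 CPM in OSK, a rise of 1.55 (SE 0.21, adjusted p = 4.6e-06), and SIX3 rose by 0.57 (adjusted p = 1.2e-06). OTX2-AS1, beside the pigment epithelium factor OTX2, measured 2.89, 5.30 and 3.19 CPM in GFP and 1.21, 0.950 and 2.53 CPM in OSK. It fell by 1.28 (SE 0.40, adjusted p = 0.013) and OTX2 by 0.26, but the call of OTX2-AS1 was lost without GFP replicate 2, OSK replicate 1 or OSK replicate 2. NR2F1-AS1 and NR2F2-AS1, antisense to the COUP transcription factors, fell by 0.85 (adjusted p = 0.00026) and 1.22 (adjusted p = 0.0055), and NR2F1 and NR2F2 fell by 0.28 and 0.56. KLF3-AS1 rose by 0.68 (adjusted p = 0.0045) from 4.94, 4.16 and 6.05 CPM to 8.97, 7.09 and 8.37 CPM, far less than KLF3, a repressor of the same family as KLF4, which rose by 2.80 from 65.9, 58.0 and 61.1 CPM to 446, 428 and 417 CPM.

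Cells with the detoxifying enzyme were set against the same control line. Fewer antisense RNAs moved than in OSK: 39 of 320 (12.2%) fell and 16 (5%) rose, where 14.6% of all genes fell and 14.7% rose. The median log2 fold change of the members was -0.07, against 0.01 for all genes. Without GFP replicate 1 it was -0.009, against 0.01 for all genes. Of the 320 members, 17 fell and 4 rose by at least 2-fold, and all 15179 tested genes leaned the same way at this size, with 607 lower and 258 higher. Among the 711 named long noncoding RNAs 99 fell and 49 rose, and among 293 hosts 70 fell and 49 rose. Of the 20 exosome genes 6 rose and 2 fell. Without GFP replicate 1, 25 members fell and 14 rose, and without GSTA4 replicate 1, 27 fell and 13 rose.

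IGFL2-AS1 had the largest fall. It lies at chromosome 19, 46189166 to 46203083, minus strand, outside the body of IGFL2, the gene of a small secreted insulin growth factor-like protein. It measured 146, 144 and 129 CPM in WT, 71.8, 43.7 and 40.6 CPM in GFP, 4.19, 2.33 and 1.86 CPM in GSTA4 and 64.0, 55.6 and 44.0 CPM in OSK. WT was highest, GSTA4 lowest, and GFP and OSK overlapped. The change in GSTA4 against GFP was -4.19 (SE 0.25, adjusted p = 4.8e-11). IGFL2 was between 0 and 0.492 CPM in all libraries and was not tested. TMC3-AS1, already described for OSK, fell here too, to 2.16, 1.95 and 0.963 CPM (log2 fold change -1.93, SE 0.28, adjusted p = 2e-05), with TMC3 at -1.74. The other large falls were of RNAs that lie in the body of the host without exon overlap. SLIT3-AS1 measured 6.39, 5.09 and 1.49 CPM in GFP and 0.635, 1.35 and 0.757 CPM in GSTA4, a fall of 2.24 (SE 0.47, adjusted p = 0.0012), with SLIT3, a ligand of ROBO receptors, at -0.53. COL18A1-AS1, in the gene of the basement membrane collagen XVIII, fell by 2.01 (SE 0.35, adjusted p = 0.00015) from 6.62, 7.24 and 3.87 CPM to 2.03, 0.751 and 1.51 CPM, with COL18A1 at -0.92 (adjusted p = 1.1e-07). Per kb of exon, means in WT, GFP and GSTA4 were 0.465, 1.38 and 0.293 CPM for SLIT3-AS1. They were 0.755, 1.71 and 0.415 CPM for COL18A1-AS1 and 0.420, 0.837 and 0.218 CPM for TMC3-AS1. SLIT3-AS1, COL18A1-AS1 and TMC3-AS1 were also higher in GFP than in WT past the threshold. That call was lost without GFP replicate 2 for COL18A1-AS1, and without GFP replicate 1 or GFP replicate 2 for SLIT3-AS1.

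The rises were smaller. GATA6-AS1 starts 435 bases from GATA6, a factor of endoderm and heart development, on the other strand. It measured 6.72, 6.98 and 7.32 CPM in WT, 9.88, 7.74 and 5.77 CPM in GFP, 15.6, 18.0 and 15.8 CPM in GSTA4 and 2.85, 3.17 and 2.60 CPM in OSK. GSTA4 lay above and OSK below all other libraries. In GSTA4 against GFP it rose by 1.08 (SE 0.16, adjusted p = 3.4e-05) and GATA6 by 0.29 (adjusted p = 0.021), and the ratio rose by 0.80 (limma adjusted p = 0.033). ELFN1-AS1 went from 0.760, 0.502 and 0.679 CPM to 2.22, 2.18 and 2.13 CPM, a rise of 1.74 (SE 0.44, adjusted p = 0.0052), and ELFN1, a synaptic membrane protein, gave -0.02 (adjusted p = 0.98). HHIP-AS1, antisense to the hedgehog antagonist HHIP, went from 0.989, 0.573 and 0.815 CPM to 3.24, 1.88 and 2.61 CPM, a rise of 1.70 (SE 0.48, adjusted p = 0.011) that was lost without GFP replicate 2 or GSTA4 replicate 1. ADIRF-AS1 went from 1.14, 2.01 and 1.49 CPM to 3.88, 4.13 and 3.65 CPM, a rise of 1.32 (SE 0.36, adjusted p = 0.0087). Its host ADIRF had 0 reads in all 12 libraries, which allows up to 0.238 CPM at the lowest depth for counting error only. Whether reads of ADIRF were left out in the counting was not tested, so the 0 does not show that ADIRF was silent.

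Both antisense RNA and host passed in 27 pairs, 24 of them in the same direction. In 21 pairs the antisense RNA alone passed, in 92 the host alone and in 154 neither. Among all 443 pairs both passed in 39, 33 of them in the same direction. The ratio changed in 21 of 294 pairs (7.14%), 13 up and 8 down, against 5.19% of the 443 pairs. This number was 7 without GSTA4 replicate 3, 8 without GSTA4 replicate 1, 9 without GFP replicate 2 and 10 without GSTA4 replicate 2. The 3 opposite pairs were SLC25A25-AS1, EPB41L4A-AS1 and PPM1F-AS1. SLC25A25-AS1, antisense to a mitochondrial nucleotide carrier, fell by 0.48 (SE 0.11, adjusted p = 0.0019) from 24.3, 20.1 and 21.5 CPM to 16.9, 15.9 and 14.4 CPM, while SLC25A25 rose by 0.64 from 17.6, 16.5 and 15.1 CPM to 26.6, 23.7 and 26.1 CPM. The libraries of both transcripts were apart between the groups, and the ratio fell by 1.10 (limma adjusted p = 0.0003). EPB41L4A-AS1 rose by 0.37 (SE 0.09, adjusted p = 0.0027) from 31.7, 32.4 and 38.7 CPM to 45.3, 46.1 and 41.3 CPM, and EPB41L4A, a band 4.1 family protein, fell by 0.68 from 22.9, 20.7 and 18.4 CPM to 11.8, 11.9 and 14.8 CPM. PPM1F-AS1 gave -0.46 (adjusted p = 0.033) and PPM1F 0.34, and the call of the antisense RNA was lost in 5 of 13 other settings. In 2 further pairs the host moved and the antisense RNA did not pass: MELTF, melanotransferrin, rose by 2.08 from 33.8, 35.7 and 37.0 CPM to 148, 144 and 158 CPM with MELTF-AS1 at 0.33 (adjusted p = 0.46), and STARD4, a sterol carrier, fell by 1.24 from 27.4, 22.4 and 27.6 CPM to 10.9, 11.6 and 10.3 CPM with STARD4-AS1 at 0.09 (adjusted p = 0.77). The ratio changed by -1.70 in the first (limma adjusted p = 0.0018) and by 1.30 in the second (limma adjusted p = 0.0037).

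A few pairs outside the naming rule add to this. LOXL1-AS1, which overlaps the first part of the elastin-crosslinking enzyme LOXL1, measured 38.9, 37.5 and 38.0 CPM in GFP and 17, 16 and 19.1 CPM in GSTA4, a fall of 1.13 (adjusted p = 1.5e-08), and LOXL1 fell by 1.06 (adjusted p = 1.9e-08). MSC-AS1, antisense to the repressor musculin, fell by 1.35 (adjusted p = 7.5e-08) from 18.4, 17.8 and 17.9 CPM to 6.10, 7.28 and 7.91 CPM, and MSC fell by 2.37, so that the ratio rose by 1.01 (limma adjusted p = 0.0062). ZFPM2-AS1 fell by 1.69 (adjusted p = 3.6e-05) from 7.76, 6.31 and 7.74 CPM to 1.78, 1.73 and 3.23 CPM with ZFPM2, a GATA cofactor, at -0.31 (adjusted p = 0.25), and the ratio fell by 1.40 (limma adjusted p = 0.0037). These 3 pairs were singled out after their values had been seen.

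OSK and GSTA4 were also compared directly. Here 87 of 320 members (27.2%) were lower in OSK and 40 (12.5%) higher, where 23.8% of all genes were lower and 24.1% higher. The median change on the log2 scale was -0.21 for members and -0.01 for all genes. GFP enters this comparison only through the filter, scaling and spread shared by all 12 libraries. In a fit of only the 6 libraries compared, 95 members were lower and 44 higher. At least a 2-fold difference was found for 46 lower and 24 higher members, and among all 15179 tested genes for 900 lower and 1084 higher. The hosts were balanced, with 84 lower and 85 higher of 293.

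The members that differed most were largely those that had moved against GFP in 1 of the 2 lines, but UNC5B-AS1 and GATA6-AS1 had moved in both. UNC5B-AS1 was lower in GSTA4 against GFP, at -1.67 to -1.18 under the alternatives run. UNC5B-AS1 was higher in OSK by 9.16 (SE 0.14, adjusted p = 2.2e-21) and UNC5B by 1.97, and the ratio by 7.01 (limma adjusted p = 3.6e-18). IGFL2-AS1 was higher by 4.26 (SE 0.24, adjusted p = 8e-12), SBF2-AS1 by 2.79 (SE 0.19, adjusted p = 1.2e-10) with SBF2 at -0.33, and PAX8-AS1 by 2.57 (SE 0.65, adjusted p = 0.0026) with PAX8 at 3.39; without GSTA4 replicate 2, PAX8-AS1 gave 3.40. Lower in OSK were EGFR-AS1 at -2.57 (SE 0.49, adjusted p = 0.00019) with EGFR at -1.18, GATA6-AS1 at -2.51 (SE 0.18, adjusted p = 3.6e-10) with GATA6 at -1.35, HHIP-AS1 at -2.34 (SE 0.51, adjusted p = 0.00069) and IL21-AS1 at -2.26 (SE 0.55, adjusted p = 0.0019), or -3.26 without OSK replicate 1. EGFR-AS1 measured 2.41, 1.58 and 2.61 CPM in GSTA4 and 0.285, 0.253 and 0.563 CPM in OSK, while EGFR, the epidermal growth factor receptor, measured 633, 616 and 675 CPM and 271, 286 and 289 CPM. IL21-AS1 measured 1.78, 2.93 and 2.27 CPM in GSTA4 and 0.996, 0.380 and 0.0704 CPM in OSK, and its host IL21, a cytokine of T cells, had reads in 1 library only, at 0.059 CPM.

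In 76 pairs both transcripts passed, 57 in the same and 19 in opposite directions, 17 of the latter with the antisense RNA lower and the host higher in OSK and 2, SBF2-AS1 and CIRBP-AS1, the other way. The antisense RNA alone passed in 42 pairs, the host alone in 94 and neither in 82. Among all 443 pairs both passed in 95, 75 of them in the same direction. The ratio differed in 84 of 294 pairs (28.6%), 66 lower and 18 higher in OSK, against 21.9% of the 443 pairs. STARD4-AS1 and STARD4 start 364 bases apart; the antisense RNA measured 10.2, 11 and 7.77 CPM in GSTA4 and 6.12, 4.49 and 4.99 CPM in OSK, and the host 10.9, 11.6 and 10.3 CPM and 26.8, 30.1 and 25.3 CPM. Both differed without overlap, by -0.89 (adjusted p = 0.0012) and 1.32 (adjusted p = 1.2e-08), and the ratio by -2.18 (limma adjusted p = 6.2e-07). PLCE1-AS1 (-1.87 against 0.34 for the host), TMEM9B-AS1 (-0.68 against 0.56) and TP73-AS1 (-0.35 against 4.68) were opposite here as well. The ratio of FLG-AS1 to FLG differed by -5.26 (limma adjusted p = 5e-10), with FLG-AS1 itself at -1.51 (adjusted p = 0.01), a call lost without OSK replicate 1 or OSK replicate 2 and at -2.30 without OSK replicate 3.

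The comparison of GFP with WT shows what a stable control line differs in from the cells without a named open reading frame. It was the smallest for the members, and those past the threshold leaned the other way. Of 320 members 30 (9.38%) were higher in GFP and 11 (3.44%) lower, where 11% of all genes were higher and 11.2% lower. The median log2 fold change was 0.05 for members and 0.01 for all genes. Without GFP replicate 1 it was -0.03 for members and 0.005 for all genes, so the lean does not hold for the median. At least a 2-fold difference was found for 12 higher and 4 lower members, and all 15179 tested genes leaned the same way at this size, with 387 higher and 115 lower. Among named long noncoding RNAs 78 of 711 were higher and 31 lower. Without GFP replicate 1 the numbers were 18 higher and 9 lower, without GFP replicate 2 they were 16 and 10, and without WT replicate 1 they were 21 and 7. GFP replicate 1 was the highest GFP library for 149 of the 320 members (46.6%) and for 103 of 315 hosts (32.7%).

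Most of the largest rises were of RNAs close to 1 CPM. PSMB8-AS1, beside a catalytic subunit of the immunoproteasome, measured 0.435, 0.0734 and 0.354 CPM in WT and 0.836, 1.72 and 0.679 CPM in GFP, a rise of 1.83 (SE 0.55, adjusted p = 0.021). IL21-AS1 went from 0.809, 0.514 and 0.649 CPM to 2.05, 3.51 and 1.09 CPM (1.73, SE 0.52, adjusted p = 0.022) and EGFR-AS1 from 0.560, 0.294 and 0.590 CPM to 2.51, 1.29 and 0.951 CPM (1.67, SE 0.48, adjusted p = 0.016). Each of these 3 calls was lost when a single library was left out: GFP replicate 2 or WT replicate 2 for PSMB8-AS1; GFP replicate 2, WT replicate 2 or WT replicate 3 for IL21-AS1; and GFP replicate 1 or WT replicate 2 for EGFR-AS1. ZNF710-AS1, antisense to a zinc finger gene, was steadier, with 0.373, 1.03 and 0.826 CPM in WT and 2.43, 2.72 and 1.90 CPM in GFP, a rise of 1.67 (SE 0.40, adjusted p = 0.0052) with ZNF710 at 0.20 (adjusted p = 0.44).

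Of the falls, IGFL2-AS1 and GABPB1-AS1 were abundant RNAs. IGFL2-AS1 was lower in GFP, at -1.43 (SE 0.16, adjusted p = 4.8e-06) and GABPB1-AS1 at -0.79 (SE 0.13, adjusted p = 0.00024), while GABPB1 gave 0.18 (adjusted p = 0.48) and IGFL2 was not tested. ZNF295-AS1 gave -1.88 (SE 0.49, adjusted p = 0.0093), but -0.997 and no call without WT replicate 1, in which it was at 6.47 CPM against 1.84 and 1.83 CPM in the other WT libraries. CIRBP-AS1, within the gene of a cold-inducible RNA-binding protein, went from 3.98, 2.64 and 2.30 CPM to 1.90, 1.29 and 0.679 CPM, a fall of 1.22 (SE 0.35, adjusted p = 0.018) that was lost without WT replicate 1, GFP replicate 2 or GFP replicate 3, while CIRBP rose by 0.33 (adjusted p = 0.0034).

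Both transcripts passed in 16 pairs, 12 in the same and 4 in opposite directions. In 21 pairs the antisense RNA alone passed, in 55 the host alone and in 202 neither. Among all 443 pairs both passed in 25, 19 of them in the same direction. The ratio differed in 20 of 294 pairs (6.80%), 12 up and 8 down, against 5.42% of the 443 pairs, and in 0 without GFP replicate 2 by the same limma test, where 51 pairs had an unadjusted p under 0.05. Leaving out WT replicate 1 gave 6 pairs, WT replicate 2 gave 9 and GFP replicate 1 gave 10. Besides CIRBP-AS1, the opposite pairs were CDKN2B-AS1, LYRM4-AS1 and SAP30L-AS1. CDKN2B-AS1 measured 2.86, 1.84 and 2.48 CPM in WT and 5.70, 6.67 and 2.38 CPM in GFP, with overlap, and rose by 1.02 (SE 0.31, adjusted p = 0.021), a call lost without GFP replicate 1, GFP replicate 2 or WT replicate 2. CDKN2B, the cell cycle inhibitor p15, fell by 0.57 from 256, 331 and 323 CPM to 200, 202 and 211 CPM and was lowest in GSTA4, at 58.0, 55.5 and 62.7 CPM, where CDKN2B-AS1 stood at 4.07, 3.53 and 3.65 CPM. LYRM4-AS1 gave -0.74 (adjusted p = 0.0047) against 0.29 for LYRM4, a factor of iron-sulfur cluster assembly, and SAP30L-AS1 gave 0.62 (adjusted p = 0.034) against -0.32 for SAP30L, with the first of these 2 RNAs lying outside the host and the second starting 107 bases from it. The call of SAP30L-AS1 was lost without WT replicate 1, GFP replicate 1 or GFP replicate 2, and those of SAP30L-AS1, CDKN2B-AS1, CIRBP-AS1 and PSMB8-AS1 in a fit of only these 6 libraries. The largest changes of ratio came from the host. INTS6, a subunit of the Integrator complex that processes noncoding RNAs, measured 71.0, 102 and 97.6 CPM in WT, 247, 245 and 240 CPM in GFP, 100, 104 and 105 CPM in GSTA4 and 76.7, 103 and 96.8 CPM in OSK. GFP stood apart from every other group, while INTS6-AS1 gave -0.49 against WT (adjusted p = 0.29), so the ratio fell by 1.94 (limma adjusted p = 0.003). CKMT2, a mitochondrial creatine kinase, behaved alike, at 6.28, 11.3 and 10.6 CPM in WT and 21.3, 22.3 and 19.2 CPM in GFP with CKMT2-AS1 at -0.21 (adjusted p = 0.37) and the ratio at -1.37 (limma adjusted p = 0.0078).

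The 26 members whose host was not tested or not in the table, among them FGD5-AS1, OIP5-AS1, IGFL2-AS1, ADIRF-AS1 and IL21-AS1, stand apart because no change of the host could be set beside theirs. Of these 2 rose and 6 fell in OSK against GFP, 2 rose and 5 fell in GSTA4 against GFP, 2 were higher and 2 lower in GFP against WT, and 5 were higher and 4 lower in OSK against GSTA4. Changes in the comparisons that share the GFP libraries are given side by side only, since the shared libraries enter both.

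By their call in OSK against GFP the members were as follows. Among the 29 that rose were AFAP1-AS1, C1RL-AS1, CARD8-AS1, CIRBP-AS1, DHRS4-AS1, H1-10-AS1, IDI2-AS1, ITGB8-AS1, KLF3-AS1, MBNL1-AS1, MRPL20-AS1, MYO16-AS1, OGFR-AS1, OIP5-AS1, OVCH1-AS1, PAX8-AS1, PGM5-AS1, PRDX6-AS1, RARA-AS1, RASGRF2-AS1, RNF139-AS1, SBF2-AS1, SEMA3F-AS1, SIX3-AS1, SNAI3-AS1, TRIM52-AS1, UNC5B-AS1, ZNF516-AS1 and ZNF674-AS1. Among the 99 that fell were ACVR2B-AS1, ARHGAP5-AS1, ARHGEF35-AS1, BAALC-AS1, BOLA3-AS1, C10orf95-AS1, COL18A1-AS1, DAAM2-AS1, DIP2C-AS1, EGFR-AS1, ELOA-AS1, EPB41L4A-AS1, ERICH6-AS1, EXOC3-AS1, FBXL19-AS1, FOXD2-AS1, GABPB1-AS1, GATA6-AS1, GOLGA4-AS1, IL21-AS1, IQCH-AS1, ITGA9-AS1, KANSL1L-AS1, KCNJ2-AS1, KCTD21-AS1, KIF9-AS1, KTN1-AS1, LAMTOR5-AS1, LANCL1-AS1, LOXL1-AS1, MAMDC2-AS1, MCM3AP-AS1, MELTF-AS1, MMP25-AS1, MSC-AS1, MYLK-AS1, NNT-AS1, NR2F1-AS1, NR2F2-AS1, NRSN2-AS1, NUTM2A-AS1, NUTM2B-AS1, OTX2-AS1, PAN3-AS1, PCBP1-AS1, PDCD4-AS1, PLCE1-AS1, PLCG1-AS1, PRKCZ-AS1, PSMA3-AS1, PTOV1-AS1, RAB33B-AS1, RASAL2-AS1, RASSF8-AS1, RNASEH1-AS1, SAP30L-AS1, SEC24B-AS1, SH3BP5-AS1, SLC16A1-AS1, SLC25A21-AS1, SLC25A25-AS1, SLC9A3-AS1, SLIT3-AS1, SPART-AS1, SRP14-AS1, ST3GAL6-AS1, STAM-AS1, STARD4-AS1, STARD7-AS1, STX18-AS1, SUCLG2-AS1, TAGAP-AS1, TBX2-AS1, THUMPD3-AS1, TMC3-AS1, TMEM147-AS1, TMEM161B-AS1, TMEM9B-AS1, TNFRSF14-AS1, TP73-AS1, TPT1-AS1, TRAF3IP2-AS1, TRAM2-AS1, TRHDE-AS1, TTN-AS1, UBA6-AS1, UBAC2-AS1, UGDH-AS1, WARS2-AS1, WNT5A-AS1, ZBED3-AS1, ZBED5-AS1, ZMIZ1-AS1, ZNF337-AS1, ZNF528-AS1, ZNF561-AS1 and ZNF790-AS1. Among the 192 not past the threshold were both rows of DNAJC9-AS1 and A1BG-AS1, ACOXL-AS1, ADGRL1-AS1, ADIRF-AS1, ADNP-AS1, ALOX12-AS1, ARRDC1-AS1, ARRDC3-AS1, ASB16-AS1, ASH1L-AS1, ASMTL-AS1, ATP2B1-AS1, ATP6V0E2-AS1, ATXN1-AS1, BCAN-AS1, BCDIN3D-AS1, BNC2-AS1, BTG3-AS1, C21orf62-AS1, CCDC18-AS1, CCDC183-AS1, CCNT2-AS1, CCNY-AS1, CD27-AS1, CDC42-AS1, CDKN2B-AS1, CELF2-AS1, CKMT2-AS1, COX10-AS1, CRYM-AS1, CYLD-AS1, CYP1B1-AS1, DICER1-AS1, DLG5-AS1, DLGAP1-AS1, DOCK8-AS1, EIF1B-AS1, ELF3-AS1, ELFN1-AS1, EMC3-AS1, ENTPD1-AS1, ENTPD3-AS1, FAM13A-AS1, FGD5-AS1 and FLG-AS1. Also not past it were FRMD6-AS1, GAS6-AS1, GAS8-AS1, GEMIN7-AS1, GNG12-AS1, GP6-AS1, GSN-AS1, HERPUD2-AS1, HHIP-AS1, HLA-F-AS1, HMGN3-AS1, HSD17B1-AS1, ID2-AS1, IGFL2-AS1, ILRUN-AS1, INTS6-AS1, IRF1-AS1, KCNK15-AS1, KDM4A-AS1, KMT2E-AS1, KRTAP5-AS1, LENG8-AS1, LIMD1-AS1, LMNTD2-AS1, LYRM4-AS1, MAP3K14-AS1, MAP3K4-AS1, MAPKAPK5-AS1, MATN1-AS1, MCPH1-AS1, MIF-AS1, MYRF-AS1, MZF1-AS1, NAPA-AS1, NDUFV2-AS1, NEXN-AS1, NFYC-AS1, NIFK-AS1, NINJ2-AS1, NOP14-AS1, OSMR-AS1, OTUD6B-AS1, PANK2-AS1, PARD6G-AS1, PAXBP1-AS1, PGM5P4-AS1, PKP4-AS1 and PLBD1-AS1. Further ones were PLS3-AS1, POC1B-AS1, PPM1F-AS1, PPP1R12A-AS1, PPP1R26-AS1, PPP3CB-AS1, PRKAR2A-AS1, PRR34-AS1, PRR7-AS1, PSG8-AS1, PSMB8-AS1, PSMG3-AS1, PTGES2-AS1, PXN-AS1, RAB11B-AS1, RALY-AS1, RAP2C-AS1, RBM12B-AS1, RBM26-AS1, RBPMS-AS1, REPIN1-AS1, RGMB-AS1, RHPN1-AS1, RNF213-AS1, RTCA-AS1, RUFY1-AS1, RUSC1-AS1, SBNO1-AS1, SCAMP1-AS1, SDCBP2-AS1, SEMA3B-AS1, SERTAD4-AS1, SGMS1-AS1, SLC25A5-AS1, SLC2A1-AS1, SLC44A3-AS1, SMARCA5-AS1, SP2-AS1, SREBF2-AS1, SRRM2-AS1, SSBP3-AS1, ST20-AS1, STXBP5-AS1, SVIL-AS1, TAPT1-AS1 and TENM3-AS1. The last were TFAP2A-AS1, THAP7-AS1, THAP9-AS1, THBS3-AS1, TMEM202-AS1, TMEM44-AS1, TMPO-AS1, TOB1-AS1, TRAPPC12-AS1, TSC22D1-AS1, TSPOAP1-AS1, TTC28-AS1, UBE2D3-AS1, UBL7-AS1, UCKL1-AS1, URB1-AS1, USP2-AS1, VAC14-AS1, VIM-AS1, VPS9D1-AS1, WAC-AS1, WEE2-AS1, XPC-AS1, YEATS2-AS1, ZBTB11-AS1, ZEB1-AS1, ZFHX2-AS1, ZFPM2-AS1, ZNF213-AS1, ZNF22-AS1, ZNF252P-AS1, ZNF295-AS1, ZNF407-AS1, ZNF433-AS1, ZNF436-AS1, ZNF451-AS1, ZNF497-AS1, ZNF529-AS1, ZNF566-AS1, ZNF571-AS1, ZNF667-AS1, ZNF710-AS1, ZNF793-AS1, ZNRD2-AS1 and ZSCAN16-AS1.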

How the data were processed

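Poly(A) RNA-seq of ARPE-19 was deposited as raw read counts per gene; per the submitters' processing notes the authors used STAR 2.7.1a and featureCounts 1.6.2, with GRCh38 (hg38) and GRCm38 (mm10) listed without a role. The annotation release and strand setting are not given in the sources used here. Members and lists were chosen with earlier results of these data known; 1 further -AS1 row is not reported here, and some members enter the counts only. Rows without a symbol held 0.485 to 0.822% of reads and stayed out. Counts of 15179 genes kept by filterByExpr entered 1 edgeR 4.0.16 quasi-likelihood fit (R 4.3.3, limma 3.58.1) of all 12 libraries with TMM scaling and a mean per group, two-sided, with Benjamini-Hochberg adjustment over all genes per comparison and 0.05 as the threshold. Each SE was taken as the absolute log2 fold change divided by the square root of the F statistic. The ratio is log2 CPM of the antisense RNA minus that of the host (prior count 2), tested with limma over 443 pairs. Named were, per comparison, the 4 largest rises and falls without overlap of libraries, up to 5 opposite pairs, up to 4 ratios by lowest p, the 5 highest means and the rows nearest the limit. Coordinates are from GENCODE v29 (GRCh38), promoters from RefSeq (GRCh38.p14, 231 members matched). The tests were checked on simulated data. Depth was 12630675 to 17045454 reads, so 3 reads, the limit that a count of 0 allows, equal 0.176 to 0.238 CPM, for counting error only. Alternatives were RLE scaling, library size alone, other filters, DESeq2 1.42.0, a replicate block, only the libraries compared, each library left out, and, for the ratio, prior counts of 0.5 and 5 and voom weights.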

Additional observations from a re-analysis of the deposited data

How the results depend on the processing

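The number of members that fell in GSTA4 against GFP was 25 to 41 with 1 library left out, the lowest without GFP replicate 1, and that of changed ratios 7 to 20, the lowest without GSTA4 replicate 3. For GFP against WT, leaving out 1 library gave 26 to 41 members past the threshold, 16 to 29 higher, 7 to 12 lower, and 0 to 19 changed ratios, the lowest without GFP replicate 2; a fit of only these 6 libraries gave 23 members past the threshold, 17 higher and 6 lower. The cause was not tested. The counts for both comparisons of OSK stayed within 1.5 times under every alternative run, and no change of a named member past the threshold reversed in sign. With library size alone, 39.8% of all genes past the threshold in OSK against GFP were higher, against 50.4% with TMM scaling, and 42.5% against 50.3% in OSK against GSTA4; the members in the first comparison were then 26 higher and 111 lower. The replicate numbers showed at most a weak pairing of the libraries (correlation of deviations of same-numbered libraries -0.0193 to 0.153, over 0.1 in 3 of 18 pairs). These 3 all joined WT replicate 1 to replicate 1 of another group, at 0.153 for GFP, 0.120 for GSTA4 and 0.106 for OSK. With the replicate block, members higher and lower were 18 and 43 in GSTA4 against GFP, 29 and 100 in OSK against GFP, 32 and 13 in GFP against WT and 41 and 85 in OSK against GSTA4, and changed ratios 21, 89, 20 and 85. DESeq2 gave 16 and 42, 28 and 94, 28 and 11, and 40 and 83 members. Every alternative run kept the call of 30 of 55, 87 of 128, 13 of 41 and 95 of 127 members in these comparisons. Counting only members with a mean of 1 CPM in the 6 libraries outside a comparison, an alternative chosen after seeing the data, gave 13 higher and 37 lower, 26 and 98, 30 and 10, and 38 and 84. At the lowest depth 3 reads were worth 0.238 CPM, so members near 1 CPM rest on few reads.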
